A study of Mus musculus with 18 samples.

Results

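The 33 genes described here are Trp53, which encodes the transcription factor p53, its regulators, and genes known from the literature as p53 targets. They were chosen by symbol, with earlier results of these data known. Matched to their Ensembl identifiers in the GENCODE M21 annotation, they make up 33 of the 55536 Ensembl genes in the deposited count table. All 33 were found. Counts came from RNA sequencing of mouse CD8+ T cells of spleen and lymph nodes, in 18 libraries. All are labelled with the OT-I genotype, a transgenic T cell receptor that recognises the ovalbumin peptide SIINFEKL. The receptor counts of the naive libraries go against that label: Trav14 segments, which the OT-I receptor uses, made up 97.6% of all Trav counts in both knockout libraries and 97.1 to 98.6% in each control library, against 11.9 to 24.2% in each naive one. The groups were 2 libraries labelled Tra2bKO, 8 labelled Control and 8 labelled Naive. The knockout and control cells were taken on day 4 after SIINFEKL together with costimulation by anti-OX40 and anti-4-1BB antibodies, and the naive cells on day 0. The controls carried a scrambled sequence. The labels name no guide, promoter or clone for the knockout, and do not state whether the libraries of a group are separate animals. The p-values therefore reflect the spread between these libraries alone, which may be technical. Levels are given as counts scaled to library size (CPM) with TMM factors over all 18 libraries, and the members' levels in the knockout libraries are given one by one, as knockout 1 and knockout 2.

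p53 is a transcription factor that is held at a low level by the ubiquitin ligase Mdm2 and the related protein Mdm4. DNA damage, ribosomal stress and other insults block this degradation, and stabilised p53 then binds paired half-sites near its target genes. Those targets arrest the cell cycle, start apoptosis, repair DNA and, through Mdm2 and the phosphatase Ppm1d, switch p53 off again. Since control of p53 acts largely on the protein, the level of Trp53 transcripts need not follow p53 activity. In T cells the pathway is known for limiting expansion after activation.

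The libraries held 79197461 to 93495846 counts (knockout), 73735681 to 93972513 (control) and 68249844 to 86932452 (naive). Tra2b, the targeted splicing factor, had 361 and 370 CPM in knockout 1 and 2, against 466 ± 60.1 CPM in the controls (SD, n = 8). Its log2 fold change of -0.34 did not pass (edgeR quasi-likelihood test with SE 0.13 and Benjamini-Hochberg adjusted p = 0.0899). Reads of edited transcripts are counted too, so this level does not test the edit, and the word knockout follows the labels. The summed level of 5 markers of CD8 T cells was 3440 and 3020 CPM in knockout 1 and 2. It was 3030 to 3760 CPM in the controls, against 4700 to 5580 CPM in naive libraries. Of the 5 markers, 1 was lower in knockout than in control and none was higher (adjusted p under 0.05, edgeR quasi-likelihood test). Knockout 2 differed from knockout 1 along gene length: the median log2 ratio of knockout 2 to knockout 1 was -0.02 over the fifth of genes with the shortest summed exons and 0.25 over the fifth with the longest.

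In knockout against control, 17 of the 31 members tested (54.8%) were higher and 1 (3.23%) was lower (adjusted p under 0.05, edgeR quasi-likelihood test, Benjamini-Hochberg adjusted), while 13 were not called. Over all 18651 genes tested, 7.62% were called higher and 7.24% lower. The median log2 fold change was 0.50 over the members and -0.01 over all genes. As the members were chosen with earlier results of these data known, these shares and medians do not test the set. The calls included the p53-inducible growth regulators Phlda3 and Plk2, the pro-apoptotic Bbc3 and Apaf1, the cyclin Ccng1, the cell cycle inhibitor Cdkn1a and the p53 inhibitors Mdm2 and Mdm4. The 1 member called lower was Xpc, a DNA damage sensor. Trp53 itself stood at nearly the same level in both groups. Eda2r, a receptor of the tumour necrosis factor family, and the secreted cytokine Gdf15 were at or near 0 in every library and were not tested.

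Both knockout libraries lay above all 8 controls for 18 of the 31 members (58.1%), against 10.9% of all genes tested. These were the members called higher other than Rrm2b, together with Aen and Bax. Both lay below all controls for 2 members (6.45%), Plk3 and Xpc, against 12.9% of all genes. In bulk libraries, a lower share of cells with a transcript and less of it per cell cannot be told apart.

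**Figure D1:**
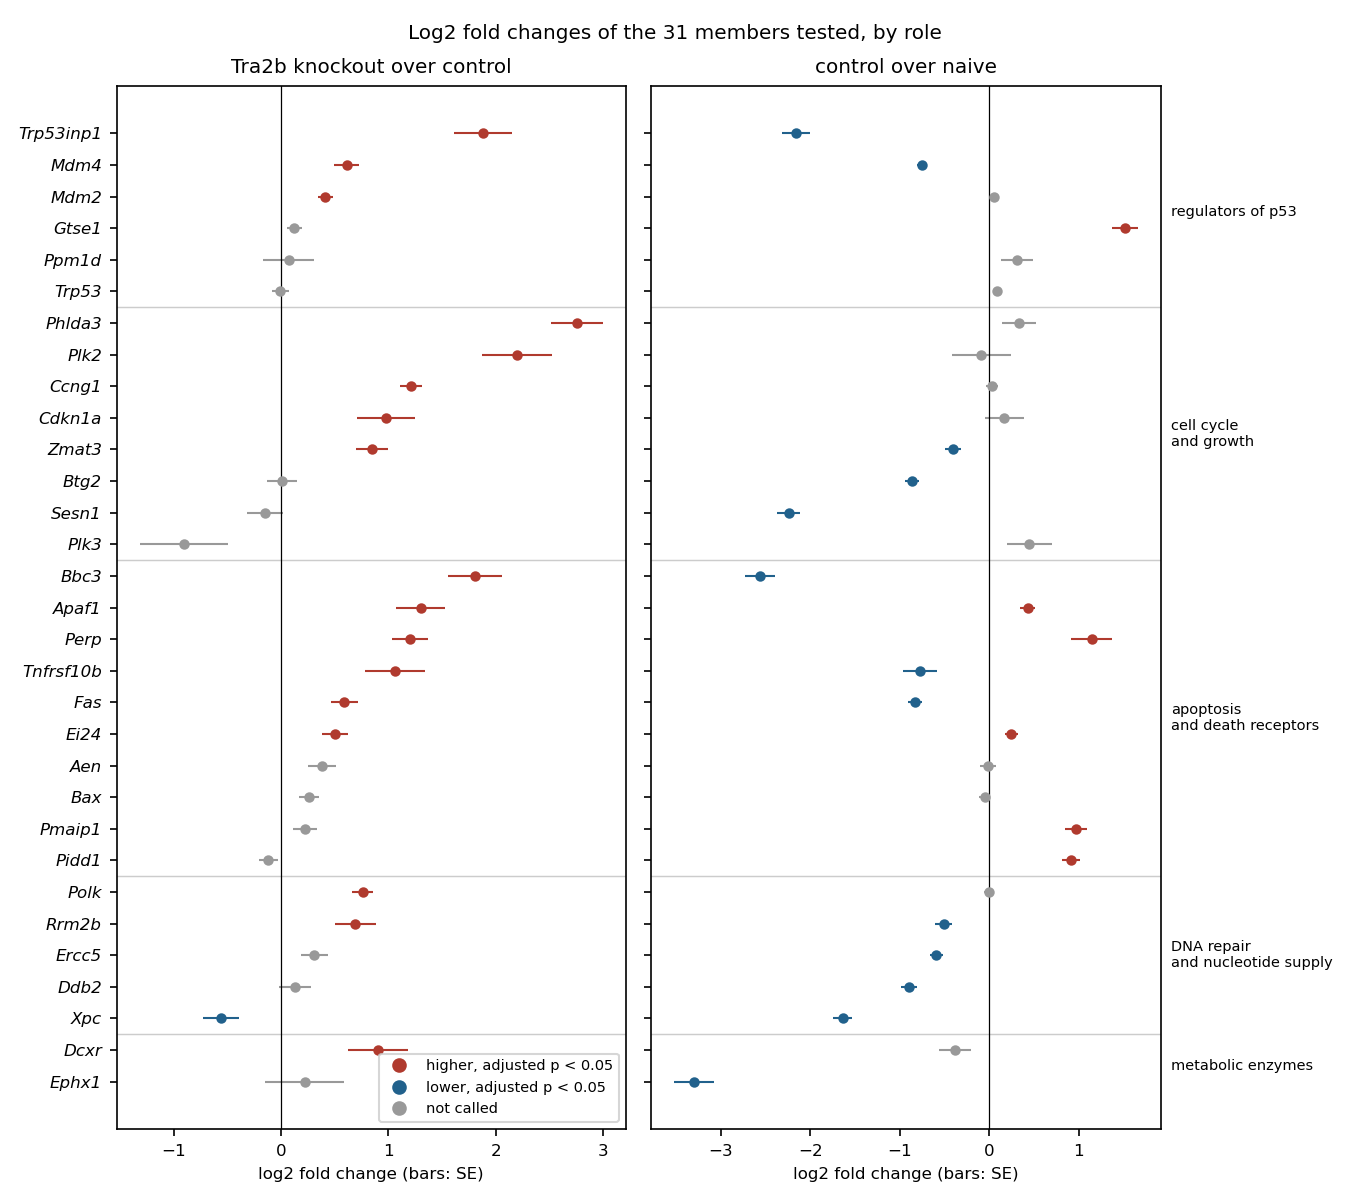
Log2 fold changes of the 31 members tested, grouped by role, for knockout over control (left) and control over naive (right), on the log2 scale with bars of 1 SE. Points are red where called higher, blue where called lower and grey where not called. On the left, called rises occur in every role group, with Phlda3 at 2.76, and Xpc is the called fall, at -0.56.

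The sequences around a pair of p53 half-sites are shown for the 4 members with the closest matches in the promoter windows searched. Windows ran from 250 bases before to 50 after each RefSeq start site (GRCm38.p6), and 25 of the 33 members had 1 or more, 34 in all. A p53 half-site of 10 bases that matched at every position was found in the windows of 11 of 25 members (44%), against 9.55% of the 27025 genes with a window. A pair of half-sites with at most 2 mismatches and at most 1 base between them was found in 4 members (16%), against 0.807% of all genes. These 4 were Ccng1, Cdkn1a, Gtse1 and Bax. With 3 mismatches allowed the shares were 36% of the members and 3.27% of all genes, and Aen, Bbc3, Dcxr, Sesn1 and Trp53 joined the list. The half-site is its own reverse complement, so both strands were searched at once, and overlapping matches were counted separately. Many members are known as genes with p53 sites, so these shares describe how the members were chosen. The stretches below run 5′ to 3′ on the gene's strand, with the pair in capitals:
Ccng1 (chr11:40755432-40755511, minus strand, 1 mismatch): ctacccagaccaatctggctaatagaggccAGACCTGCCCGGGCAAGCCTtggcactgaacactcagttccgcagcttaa
Cdkn1a (chr17:29090898-29090977, plus strand, 1 mismatch): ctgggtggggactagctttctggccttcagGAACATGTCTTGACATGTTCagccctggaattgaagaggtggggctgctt
Gtse1 (chr15:85859915-85859994, plus strand, 1 mismatch): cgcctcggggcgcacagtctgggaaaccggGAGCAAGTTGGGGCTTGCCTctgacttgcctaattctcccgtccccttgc
Bax (chr7:45467049-45467129, minus strand, 2 mismatches): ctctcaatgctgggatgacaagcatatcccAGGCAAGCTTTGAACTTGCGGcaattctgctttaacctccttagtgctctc
The pair in Cdkn1a begins 51 bases before its most upstream RefSeq start site, that in Ccng1 195 bases before, and that in Gtse1 at the base before the start. Of these 4 genes, Ccng1 and Cdkn1a rose in the knockout libraries, and the log2 fold changes of Gtse1 (0.12) and Bax (0.26) did not pass. Of the 9 members with a pair of at most 3 mismatches, 4 were called higher (with Bbc3 and Dcxr) and 5 were not called. The share called higher was 54.8% over all 31 members tested and 7.62% over all genes tested.

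Among the regulators of p53, 3 of 6 were higher in knockout than in control, none was lower, and their median log2 fold change was 0.26. The shares over all genes tested were 7.62% higher and 7.24% lower, with a median of -0.01. Trp53 had 304 CPM in knockout 1 and 261 CPM in knockout 2, against 259, 278 and 312 CPM as the lowest, median and highest of the controls. The knockout values lay within the range of the controls, with a log2 fold change of -0.01 (edgeR quasi-likelihood test with SE 0.08 and Benjamini-Hochberg adjusted p = 0.956), whose sign turned positive under RLE factors, at 0.01. Mdm2, the main ubiquitin ligase for p53 and itself a p53 target, had 149 and 163 CPM in knockout 1 and 2, against 112, 118 and 133 CPM as the lowest, median and highest of the controls. Both knockout libraries lay above every control, and the log2 fold change was 0.41 (edgeR SE 0.07, adjusted p = 0.00266). Without knockout 2 its adjusted p was 0.0586. Mdm4, which blocks the activation domain of p53, had 43 and 65 CPM in knockout 1 and 2, against 32, 34.8 and 39.6 CPM in the controls, again both above every control. Its log2 fold change was 0.61 (edgeR SE 0.12, adjusted p = 0.00701) and 0.30 without knockout 2, where it was no longer called (adjusted p = 0.223, edgeR).

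Ppm1d encodes the phosphatase Wip1, which removes activating phosphates from p53. It had 15.1 and 16.9 CPM in knockout 1 and 2, within the range of 10.5 to 20 CPM of the controls (log2 fold change 0.07, edgeR SE 0.24, adjusted p = 0.891). Its sign turned negative against controls 1 and 2 alone, at -0.10. Trp53inp1, a stress-induced nuclear protein that promotes p53 phosphorylation, had 50.8 and 101 CPM in knockout 1 and 2, against 11.3, 21.4 and 28.3 CPM in the controls. Both knockout libraries were far above every control but differed 1.99-fold from each other. The log2 fold change was 1.88 (edgeR SE 0.27, adjusted p = 0.00123), and 1.31 without knockout 2, just short of the threshold (adjusted p = 0.0511, edgeR). Gtse1, a microtubule-binding protein that moves p53 out of the nucleus, had 125 and 137 CPM in knockout 1 and 2, against 113 to 134 CPM in the controls, and did not pass.

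**Figure D2:**
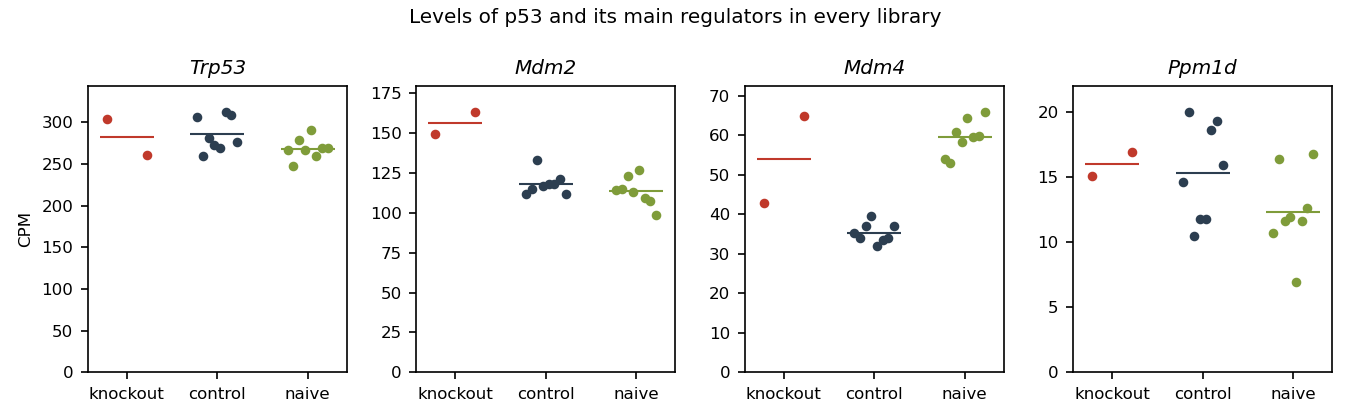
Levels of Trp53, Mdm2, Mdm4 and Ppm1d in CPM in every library, with knockout left of control and naive, 1 point per library (knockout 1 is the left point) and a line at the group mean. Both knockout libraries sit above all 8 controls for Mdm2 (149 and 163 against at most 133 CPM) and Mdm4 (43 and 65 against at most 39.6 CPM), and within the controls for Trp53 and Ppm1d.

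The genes that act on the cell cycle and growth held the pair of largest rises, Phlda3 and Plk2. In this group 5 of 8 tested were higher in knockout, none was lower, and the median log2 fold change was 0.92. All genes tested gave 7.62% higher, 7.24% lower and a median of -0.01. Phlda3, a p53 target that binds phosphoinositides and opposes Akt, had 15.6 and 17.1 CPM in knockout 1 and 2, against 1.51, 2.33 and 3.76 CPM as the lowest, median and highest of the controls. The groups were far apart, 6.78-fold by the fit, with a log2 fold change of 2.76 (edgeR quasi-likelihood test with SE 0.24 and Benjamini-Hochberg adjusted p = 8.23e-05). It was the 1 member called under all 19 alternatives that keep the replicate numbers out of the fit, including controls 1 and 2 alone (adjusted p = 0.0449, edgeR). Plk2, a polo-like kinase, had 5.43 and 6.08 CPM in knockout 1 and 2, against 0.744, 1.13 and 1.99 CPM in the controls, with no overlap. Its log2 fold change was 2.20 (edgeR SE 0.33, adjusted p = 0.00158). Ccng1, an atypical cyclin that brings a phosphatase to Mdm2, had 355 and 384 CPM in knockout 1 and 2, against 139, 158 and 200 CPM in the controls. The knockout libraries agreed closely with each other, and the log2 fold change of 1.21 had the small SE of 0.10 (adjusted p = 5.03e-05, edgeR).

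Cdkn1a encodes p21, the inhibitor of cyclin-dependent kinases through which p53 arrests the cell cycle. It had 16.2 and 15.8 CPM in knockout 1 and 2, against 5.04, 8.68 and 10.9 CPM in the controls. The knockout libraries lay above every control, and the controls varied widely among themselves, so the log2 fold change of 0.98 had an SE of 0.27 (adjusted p = 0.0288, edgeR). With 1 knockout library left out it was 0.95 or 1.01 and was not called (adjusted p = 0.123 without knockout 1 and 0.169 without knockout 2, edgeR). Zmat3, an RNA-binding zinc finger protein, had 6.80 and 8.35 CPM in knockout 1 and 2, against 3.42, 4.24 and 4.75 CPM in the controls, with no overlap (log2 fold change 0.85, edgeR SE 0.15, adjusted p = 0.00313). Without knockout 2 it was not called (adjusted p = 0.0854, edgeR). The antiproliferative Btg2 and the stress protein Sesn1, at log2 fold changes of 0.01 and -0.15, were not called, and both signs turned under other settings, Btg2 to -0.06 against controls 3 to 8 and Sesn1 to 0.14 against controls 1 and 2. Plk3, another polo-like kinase, had 3.18 and 3.96 CPM in knockout 1 and 2, both below the controls at 4.29 to 12.2 CPM, but did not pass (log2 fold change -0.91, edgeR SE 0.41, adjusted p = 0.162).

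**Figure D3:**
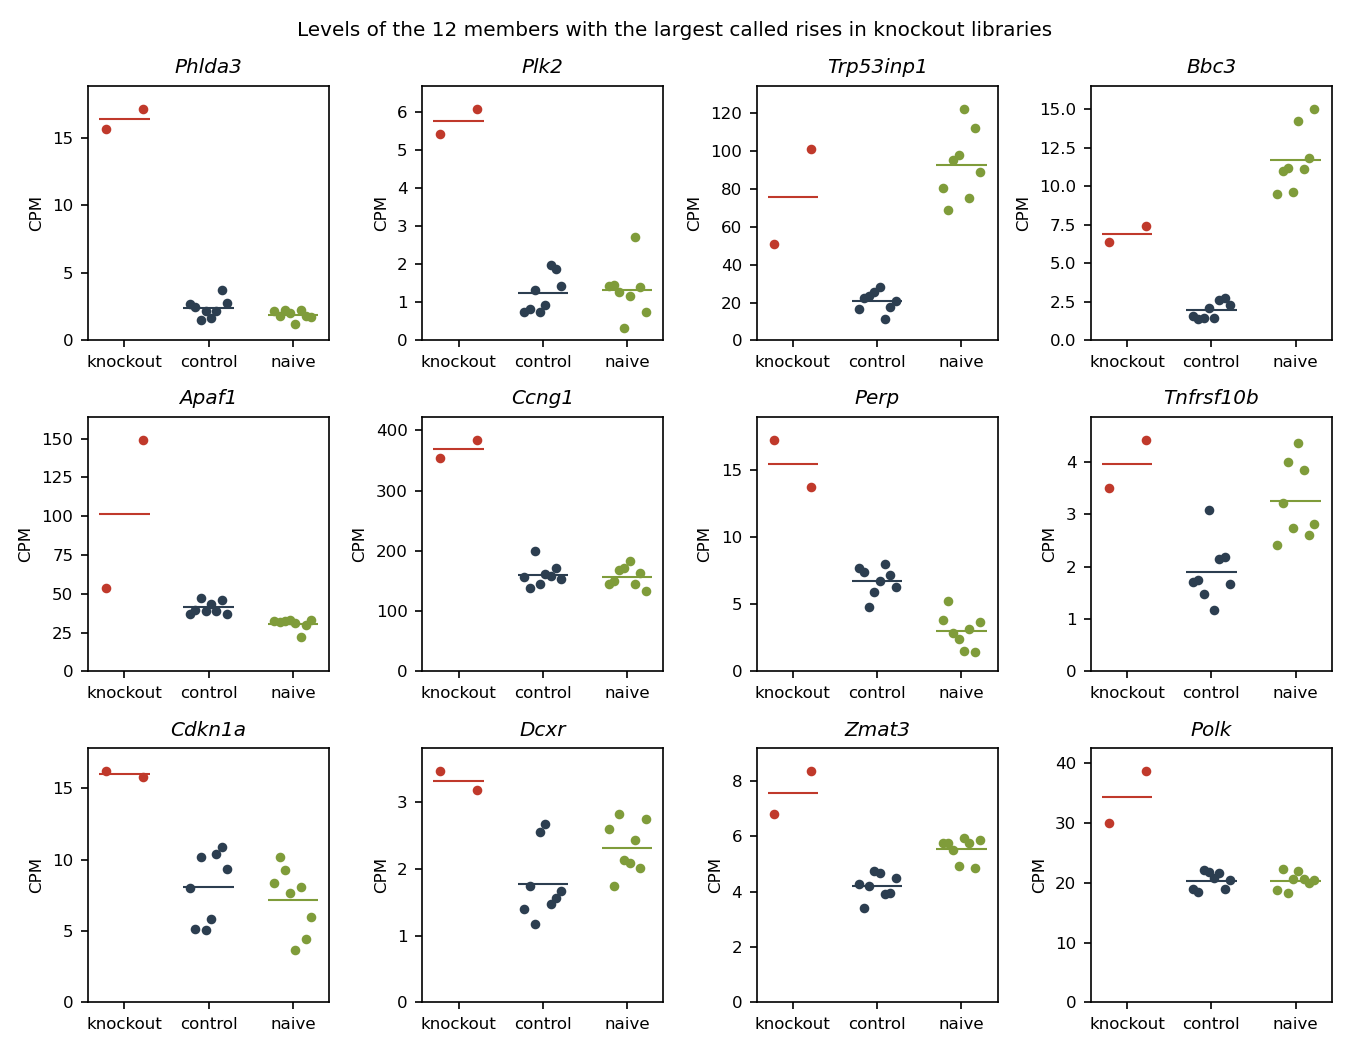
Levels in CPM, on linear axes from 0, of the 12 members with the largest called rises in knockout over control, with 1 point per library (knockout 1 is the left point of its pair) and a line at the group mean. Knockout stands left of control and naive. Both knockout points lie above all 8 control points in every panel, and for Apaf1 (53.7 and 149 CPM) and Trp53inp1 (50.8 and 101 CPM) they are far from each other.

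In the group of apoptosis genes and death receptors, 6 of 10 tested were higher in knockout, none was lower, and the median log2 fold change was 0.54. Beside them, 7.62% of all genes tested were higher and 7.24% lower, with a median of -0.01. Bbc3 encodes PUMA, a BH3-only protein that neutralises the survival proteins of the Bcl-2 family. It had 6.37 and 7.39 CPM in knockout 1 and 2, against 1.38, 1.83 and 2.76 CPM in the controls. Both knockout libraries were well above the highest control, and the log2 fold change was 1.81 (edgeR quasi-likelihood test with SE 0.25 and Benjamini-Hochberg adjusted p = 0.00109). The other BH3-only gene, Pmaip1 (NOXA), had 50.8 and 57.7 CPM in knockout 1 and 2, against 39 to 53.3 CPM in the controls, and was not called at 0.22. Bax, which permeabilises the mitochondrial outer membrane, had 173 and 166 CPM in knockout 1 and 2, against 125, 143 and 162 CPM in the controls. It lay above every control by a narrow margin and did not pass (log2 fold change 0.26, edgeR SE 0.09, adjusted p = 0.0782).

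Apaf1, the scaffold of the apoptosome, had 53.7 and 149 CPM in knockout 1 and 2, against 37.2, 39.5 and 47.5 CPM in the controls. Both lay above every control, but knockout 2 was 2.79 times knockout 1. The log2 fold change of 1.30 (edgeR SE 0.23, adjusted p = 0.00362) was 0.40 without knockout 2, and then not called (adjusted p = 0.149, edgeR). Perp, a membrane protein of desmosomes, had 17.2 and 13.7 CPM in knockout 1 and 2, against 4.81, 6.96 and 7.98 CPM in the controls, with no overlap (log2 fold change 1.20, edgeR SE 0.17, adjusted p = 0.00121). Of the death receptors, Fas had 56.5 and 48.3 CPM in knockout 1 and 2, against 30.5, 33.2 and 44.4 CPM in the controls (log2 fold change 0.59, edgeR SE 0.13, adjusted p = 0.0125). Without knockout 1 it was not called (adjusted p = 0.123, edgeR). Tnfrsf10b, the mouse receptor for TRAIL, had 3.50 and 4.42 CPM in knockout 1 and 2, against 1.18, 1.72 and 3.09 CPM in the controls (log2 fold change 1.06, edgeR SE 0.28, adjusted p = 0.0252). It stood above every control, yet was not called without knockout 1 (adjusted p = 0.0593, edgeR) or without knockout 2 (adjusted p = 0.259, edgeR).

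Ei24, a protein of the endoplasmic reticulum, had 77.1 and 90.3 CPM in knockout 1 and 2, against 50.8 to 70.6 CPM in the controls, and was called at 0.50 (edgeR SE 0.12, adjusted p = 0.0189), though not without knockout 2 (adjusted p = 0.228, edgeR). The nuclease Aen, at 51.9 and 59.6 CPM in knockout 1 and 2 against 34.6 to 49.4 CPM in the controls, did not pass at 0.38 (adjusted p = 0.0616, edgeR). Pidd1, which assembles a platform that activates caspase-2, had 52.8 and 50.8 CPM in knockout 1 and 2, within the 46.9 to 59.7 CPM of the controls, and its log2 fold change of -0.12 changed sign against controls 1 and 2 alone, at 0.03. Eda2r had 0 and 0.22 CPM in knockout 1 and 2, and 7 of 8 controls and all 8 naive libraries were at 0.

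Of 5 genes of DNA repair and nucleotide supply, 2 were higher in knockout and 1 was lower, with a median log2 fold change of 0.31. For all genes tested these values were 7.62%, 7.24% and -0.01. Polk, a polymerase that copies past DNA lesions, had 30 and 38.7 CPM in knockout 1 and 2, against 18.4, 20.6 and 22.1 CPM in the controls, with no overlap (log2 fold change 0.76, edgeR quasi-likelihood test with SE 0.10 and Benjamini-Hochberg adjusted p = 0.000998). Rrm2b, the p53-inducible subunit of ribonucleotide reductase, had 8.86 and 15.5 CPM in knockout 1 and 2, against 6.51, 7.11 and 8.90 CPM in the controls. Knockout 1 lay inside the range of the controls, and the log2 fold change of 0.69 (edgeR SE 0.19, adjusted p = 0.0271) was 0.24 without knockout 2 (adjusted p = 0.602, edgeR). It was also not called once a trend along exon length and base composition was removed, at 0.40 (adjusted p = 0.127, edgeR). Xpc had 11.3 and 8.49 CPM in knockout 1 and 2, against 12, 15.2 and 17 CPM in the controls. Its log2 fold change of -0.56 (edgeR SE 0.17, adjusted p = 0.0472) was close to the threshold and was called in 7 of 19 alternatives. It was lost without knockout 2 (adjusted p = 0.442, edgeR), and on leaving out control 3, 4, 5, 7 or 8. The damage sensor Ddb2 and the nuclease Ercc5, at 0.13 and 0.31, were not called.

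The enzymes Dcxr and Ephx1 complete the set. Dcxr, which reduces xylulose, had 3.47 and 3.18 CPM in knockout 1 and 2, against 1.17, 1.62 and 2.68 CPM in the controls. It lay above every control, with a log2 fold change of 0.90 (SE 0.28) and an adjusted p just under the threshold of 0.05 (edgeR), and was called in 7 of 19 alternatives, none of them without a knockout library. Leaving out control 1, 2, 3, 6, 7 or 8 also ended its call. Ephx1, an epoxide hydrolase, had 8.69 and 5.89 CPM in knockout 1 and 2, within the 3.39 to 10.8 CPM of the controls, and was not called at 0.22. Its sign turned without knockout 1, at -0.10.

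Leaving out knockout 1, 13 of 33 members (39.4%) were called higher and 1 (3.03%) lower, beside 7.3% and 4.73% of all genes tested (edgeR quasi-likelihood test, Benjamini-Hochberg adjusted). Leaving out knockout 2, 7 of 32 members (21.9%) were called higher and none lower, beside 1.53% and 1.74% of all genes. In both fits the lone knockout library is assumed to vary like the controls. Bbc3, Ccng1, Perp, Phlda3, Plk2 and Polk were called both without knockout 1 and without knockout 2. The 4 members that were over 1.5 times as high in knockout 2 as in knockout 1 were Apaf1 (2.79-fold), Trp53inp1 (1.99-fold), Rrm2b (1.75-fold) and Mdm4 (1.51-fold). Without knockout 1 their log2 fold changes were 1.85, 2.29, 1.03 and 0.87, all called, and without knockout 2 they were 0.40, 1.31, 0.24 and 0.30, none called. All 4 belong to the fifth of genes with the longest summed exons, from 6268 bases, and 4 of 31 members (12.9%) compares with 18.1% of all genes tested. Phlda3, with 1559 bases of exon, and Ccng1, with 3512, differed little between the knockout libraries. With the trend along exon length and base composition removed, 17 members (54.8%) were called higher and none lower, beside 6.33% and 5.98% of all genes. Bax was among the 17, at 0.52. Against controls 3 to 8 alone, 14 (45.2%) were called higher and 1 (3.23%) lower, beside 7.67% and 7.29% of all genes.

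**Figure D4:**
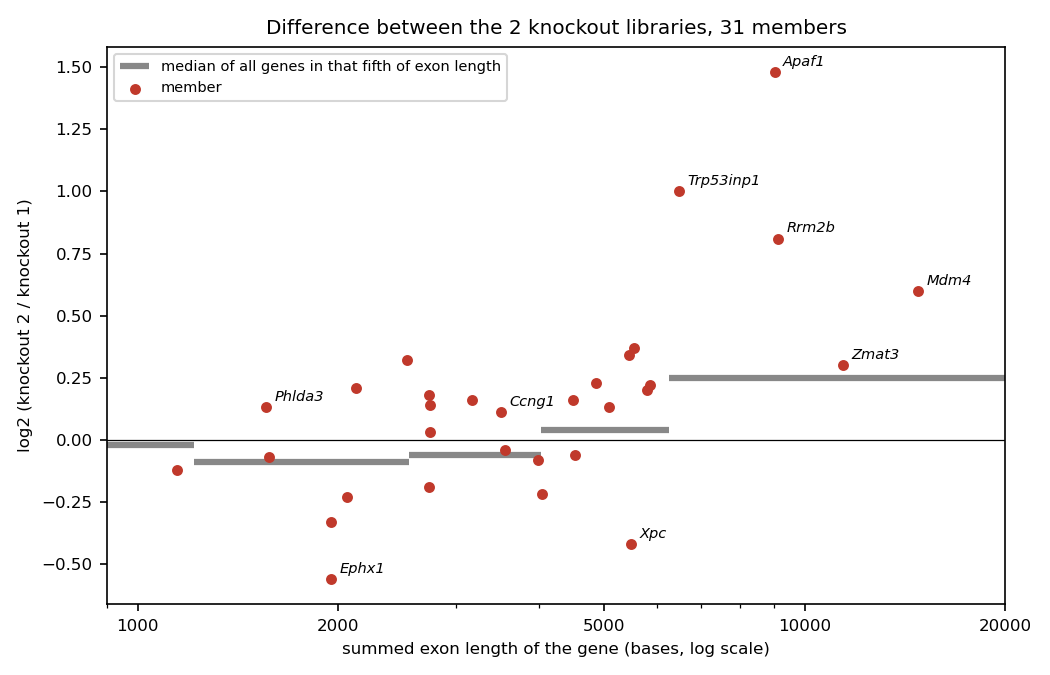
Log2 ratio of knockout 2 to knockout 1 in CPM for the 31 members tested, against the summed exon length of each gene in bases (log axis). Grey bars give the median of all genes in each of 5 classes of exon length, -0.02 in the shortest and 0.25 in the longest, and Apaf1, Trp53inp1, Rrm2b and Mdm4 stand highest, between 0.60 and 1.48.

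Markers of other cells were measured beside these changes. The summed level of 8 B cell markers was 830 and 668 CPM in knockout 1 and 2, against 395 to 474 CPM in the controls. Nearly all of it was Ighm, the heavy chain of IgM, at 800 and 635 CPM in knockout 1 and 2, which was the 1 marker called of 7 tested (0.83, edgeR adjusted p = 0.000184). The median log2 fold change of these 7 was -0.28, and Cd79a, Ms4a1 and Pax5 were at most 0.86 CPM in the knockout libraries. The sum of 5 NK cell markers was 494 and 423 CPM in knockout 1 and 2, against 121 to 346 CPM in the controls. It was almost wholly Klrk1, the receptor NKG2D, which activated CD8 T cells also express, at 493 and 423 CPM in knockout 1 and 2. None of the 4 NK markers tested was called, and their median was -0.27, with Ncr1 and Klrb1c at most 0.655 CPM in the knockout libraries. The summed level of 4 erythroid markers was 78.7 and 7.99 CPM in knockout 1 and 2, against 0.215 to 10.8 CPM in the controls, and 3 of the 4 were called higher, but none once knockout 1 or knockout 2 was left out (edgeR). For 8 markers of dendritic cells and macrophages the sums were 89.5 and 75.9 CPM in knockout 1 and 2, against 30.2 to 53.9 CPM in the controls, with Siglech at 0 in both groups and none of 6 tested called (median 0.80). Neutrophil markers summed to 1.96 and 1.38 CPM in knockout 1 and 2 and at most 1.76 CPM in the controls, with Elane at 0 in both groups. Those of CD4 T cells summed to 2.45 and 2.46 CPM in knockout 1 and 2, below the 3.48 to 12.7 CPM of the controls. Of the 3 CD4 T cell markers tested, 1 was called lower and none higher. Those of stroma and endothelium reached 46.6 and 50.6 CPM in knockout 1 and 2 and at most 45.8 CPM in the controls, with Pdpn at 0 in both groups. The part of these cells in the members' changes was not tested.

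Further genes of the pathway were taken from lists of the same kind. Of 27 other p53 targets, 4 (14.8%) were higher in knockout and 1 (3.7%) was lower (edgeR quasi-likelihood test, Benjamini-Hochberg adjusted). Over all genes tested, 7.62% were higher and 7.24% lower. The median log2 fold change of these targets was 0.04. Psrc1, a regulator of the mitotic spindle, had 14.2 and 15.3 CPM in knockout 1 and 2, against 4.92, 7.34 and 9.01 CPM as the lowest, median and highest of the controls, a log2 fold change of 1.01 (edgeR SE 0.17, adjusted p = 0.00313). The thiamine transporter Slc19a2 and the stress protein Sesn2 were called higher, at 0.64 and 0.69. Gls2, a mitochondrial glutaminase, was the call in the other direction, at 1.30 and 1.24 CPM in knockout 1 and 2, against 2.90, 4.26 and 6.56 CPM in the controls, a log2 fold change of -1.77 (edgeR SE 0.32, adjusted p = 0.004). The median log2 fold change of the 27 was -0.02 without knockout 1 and 0.03 without knockout 2, beside -0.05 and -0.04 over all genes tested.

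Of 18 kinases and cofactors upstream of p53, 4 (22.2%) were higher in knockout and 3 (16.7%) were lower. The shares over all genes tested were 7.62% and 7.24%. The median log2 fold change of the 18 was 0.07. The higher ones included the damage kinase Atr, at 33.2 and 61.2 CPM in knockout 1 and 2, against 19.1 to 30 CPM in the controls (0.90), and the checkpoint kinase Chek1 (0.41). The lower ones included the acetyltransferase Kat5 (-0.35) and Wrap53 (-0.41), whose gene overlaps Trp53 on the opposite strand. The counting is not stated to use strand, so reads of Wrap53 and Trp53 where they overlap cannot be told apart. The median of the 18 was 0.18 without knockout 1 and 0.04 without knockout 2, beside -0.05 and -0.04 over all genes tested. With the length and GC trend removed, 3 were higher and none lower, beside 6.33% and 5.98% of all genes tested. Among 20 genes that p53 represses through p21 and the DREAM complex, 5 (25%) were lower in knockout and 1 (5%) was higher (Chek1). Over all genes tested, 7.24% were lower and 7.62% higher. The median of the 20 was -0.13. The lower ones included Rrm2 (-0.52), the S-phase subunit of ribonucleotide reductase, and the mitotic kinases Aurkb (-0.39), Plk1 (-0.40) and Cdk1 (-0.37). That median was -0.2 without knockout 1 and -0.11 without knockout 2, beside -0.05 and -0.04 over all genes tested. Of the p53 family, Trp73 was not called at -0.89 (SE 0.60) and Trp63 was too low to test.

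**Figure D5:**
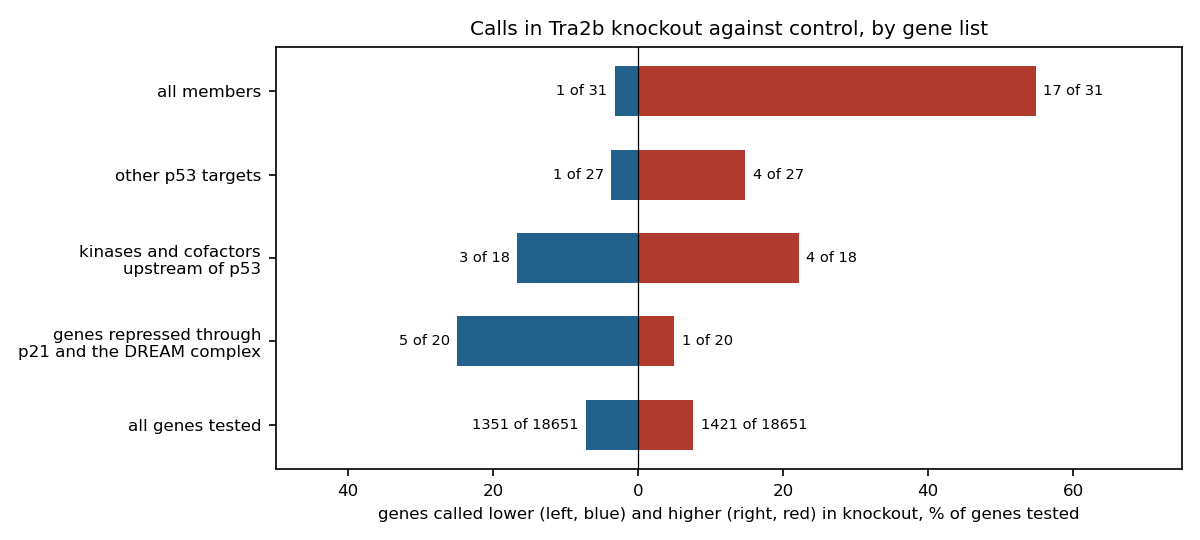
Share of tested genes called higher (red, right of 0) and lower (blue, left of 0) in knockout over control, in percent, for the members, 3 other lists of the p53 pathway and all genes tested. The members reach 17 of 31 higher, against 4 of 27 for the other targets and 1421 of 18651 for all genes. Members and lists were chosen with earlier results of these data known, so the shares do not test the sets.

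In control against naive, 6 of the 31 members tested (19.4%) were higher and 13 (41.9%) were lower, while 32.5% of all 17078 genes tested were called higher and 39% lower (edgeR quasi-likelihood test, Benjamini-Hochberg adjusted). The median log2 fold change was -0.05 over the members and -0.08 over all genes. The naive libraries differed from the controls in more than time, as their Trav14 share, given at the start, goes against the OT-I label. Markers of B cells summed to 395 to 474 CPM in the controls, against 731 to 1170 CPM in the naive libraries. Stimulation and the source of the naive cells cannot be told apart.

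The largest difference was in Ephx1, at 3.39, 5.43 and 10.8 CPM as the lowest, median and highest of the controls, against 42.4, 63.2 and 77.3 CPM in the naive libraries (log2 fold change -3.30, edgeR SE 0.22, adjusted p = 3.49e-10). Bbc3 had 1.38, 1.83 and 2.76 CPM in the controls, against 9.47, 11.2 and 15 CPM in the naive libraries (-2.56, edgeR SE 0.17, adjusted p = 3.29e-10). Sesn1 had 17, 22.1 and 29.1 CPM in the controls, against 73.1, 105 and 144 CPM in the naive libraries (-2.24, edgeR SE 0.13, adjusted p = 6.75e-11). In all 3 genes the groups were far apart, with every control below every naive library. Trp53inp1 had 11.3, 21.4 and 28.3 CPM in the controls, against 68.8, 92.2 and 122 CPM in the naive libraries (-2.16, edgeR SE 0.16, adjusted p = 1.65e-09). Xpc had 12, 15.2 and 17 CPM in the controls, against 32.3, 44.7 and 60.1 CPM in the naive libraries (-1.64, edgeR SE 0.11, adjusted p = 4.28e-10). Of the other repair and nucleotide genes, Ddb2 (-0.90), Ercc5 (-0.59) and Rrm2b (-0.51) were also lower in the controls, and Polk was not called.

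Of the members that were higher in the controls, Gtse1 had 113, 119 and 134 CPM as the lowest, median and highest of the controls, against 26.6, 43.8 and 65.5 CPM in the naive libraries (log2 fold change 1.52, edgeR SE 0.14, adjusted p = 1.91e-08). Gtse1 is a gene of the G2 and S phases, and all 20 genes of the p21 and DREAM list were higher in the controls, with a median log2 fold change of 1.40. Perp had 4.81, 6.96 and 7.98 CPM in the controls, against 1.41, 3.04 and 5.23 CPM in the naive libraries, with a small overlap (1.15, edgeR SE 0.23, adjusted p = 0.000175). Pmaip1 had 39, 47 and 53.3 CPM in the controls, against 18.4, 22 and 35.9 CPM in the naive libraries, with no overlap (0.97, edgeR SE 0.12, adjusted p = 1.27e-06). Pidd1, Apaf1 and Ei24 were higher as well, at 0.92, 0.43 and 0.25. Trp53 had 259 to 312 CPM in the controls, against 247 to 290 CPM in naive libraries, and did not pass (0.09, edgeR SE 0.05, adjusted p = 0.0782), and Mdm2, at 112 to 133 CPM in the controls against 98.8 to 127 CPM in naive libraries, did not pass either (0.06). Mdm4 was lower, at 32 to 39.6 CPM in the controls against 53 to 65.9 CPM in the naive libraries (-0.75, edgeR SE 0.06, adjusted p = 1.39e-09). Among the 26 further p53 targets tested, 11 (42.3%) were higher and 9 (34.6%) lower. Among 17 upstream kinases and cofactors, 7 (41.2%) were higher and 7 (41.2%) lower. Over all genes tested the shares were 32.5% higher and 39% lower.

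In knockout against naive, 16 of the 31 members were higher (51.6%) and 6 were lower (19.4%), against 21.1% and 23.6% of all 19776 genes tested (edgeR quasi-likelihood test, Benjamini-Hochberg adjusted). The 3 comparisons share libraries, so their values are set side by side and no overlap between them is drawn. Phlda3 had 15.6 and 17.1 CPM in knockout 1 and 2, against 1.19, 1.95 and 2.25 CPM as the lowest, median and highest of the naive libraries (log2 fold change 3.12, edgeR SE 0.18, adjusted p = 1.71e-07). Perp had 17.2 and 13.7 CPM in knockout 1 and 2, against 1.41, 3.04 and 5.23 CPM in the naive libraries (2.38, edgeR SE 0.35, adjusted p = 0.000161). Plk2 had 5.43 and 6.08 CPM in knockout 1 and 2, against 0.333, 1.34 and 2.71 CPM in the naive libraries (2.14, edgeR SE 0.44, adjusted p = 0.00172). For these 3 genes the controls and naive libraries overlapped in part or whole and the knockout libraries stood above both.

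Apaf1 had 53.7 and 149 CPM in knockout 1 and 2, against 22.1, 31.9 and 33 CPM in the naive libraries (log2 fold change 1.75, edgeR SE 0.24, adjusted p = 8.13e-05), and Gtse1 had 125 and 137 CPM in the same libraries, against 26.6, 43.8 and 65.5 CPM in the naive libraries (1.66, edgeR SE 0.23, adjusted p = 9.89e-05). Ephx1 had 8.69 and 5.89 CPM in knockout 1 and 2, against 42.4, 63.2 and 77.3 CPM in the naive libraries (-3.05, edgeR SE 0.25, adjusted p = 2.22e-06). Sesn1 had 20.9 and 19.8 CPM in knockout 1 and 2, against 73.1, 105 and 144 CPM in the naive libraries (-2.36, edgeR SE 0.22, adjusted p = 6.71e-06), and Xpc had 11.3 and 8.49 CPM in knockout 1 and 2, against 32.3, 44.7 and 60.1 CPM in the naive libraries (-2.18, edgeR SE 0.22, adjusted p = 9.99e-06). These 3 genes were low in both stimulated groups. Trp53inp1 and Mdm4 were not called between knockout and naive, at -0.26 (SE 0.24) and -0.11 (SE 0.13). For both genes knockout 1 lay below every naive library and knockout 2 within the naive range. Bbc3 stood between the other groups, at 6.37 and 7.39 CPM in knockout 1 and 2, below the naive libraries at 9.47 to 15 CPM (-0.73, edgeR SE 0.19, adjusted p = 0.00688).

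Per length, Bax and Ccng1 were the highest members in both knockout libraries. Bax had 110 and 105 CPM per kilobase of exon in knockout 1 and 2, and a mean of 90 in the controls. Ccng1 had 101 and 109 CPM per kilobase in knockout 1 and 2, and a mean of 45.7 in the controls, while Trp53 had 75.1 and 64.5 in knockout 1 and 2, and 70.6 in the controls. The members with the largest fold changes in knockout over control were low by the same measure: Phlda3 had 10 and 11 CPM per kilobase in knockout 1 and 2, and 1.54 in the controls, and Plk2 had 1.21 and 1.35 in knockout 1 and 2, and 0.275 in the controls.

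The deposited transcript counts divide each gene among its annotated isoforms, and the share of a gene's counts is given for the pair of isoforms with the highest mean share. A further coding isoform is added for Mdm2. On simulated data with these designs the transcript usage test missed most changes and most of its calls were false, so these shares are given without a test. For Trp53, the coding isoform Trp53-203 held 51.7 and 51.1% of the counts in knockout 1 and 2, against 47.9 to 62.3% in the controls, and Trp53-206, also coding, held 43.4 and 40.3% in knockout 1 and 2, against 30.8 to 39.5% in the controls. For Mdm2, the coding isoform Mdm2-201 held 24 and 23.9% in knockout 1 and 2, within the 16.5 to 62.9% of the controls. Mdm2-209, annotated as a target of nonsense-mediated decay, held 50.8 and 50%, against 0 to 43.6% in the controls, and 0 to 49.4% in naive libraries. The coding isoform Mdm4-210 held 71.7 and 80.9% of Mdm4 counts in knockout 1 and 2, against 80.2 to 86.7% in the controls, and Mdm4-205, annotated as a retained intron, held 3.82 and 3.06%, within 2.16 to 5.53%. For Fas, Fas-201 (coding) held 55.6 and 58.9% in knockout 1 and 2, within 44.9 to 94.7% of the controls, and Fas-204 (annotated for nonsense-mediated decay) held 41.9 and 39.8%, within 1.62 to 51.4%. Shares of single isoforms thus varied widely among libraries of 1 group, with Mdm2-209 at 0 in 1 control and 3 naive libraries.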

How the data were processed

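The submitters' processing notes list STAR 2.7.1a, an aligner, then StringTie 2.1.0, SAMtools 1.9, DESeq2 1.30.1 and R 4.0.5, and name both mm10 and mm39 as builds, with no role given. Libraries were made with a low-input polyA kit, per the labels. The deposited tables hold the authors' estimated counts per gene and per transcript, written as whole numbers, and 0 columns of other samples. Of 81881 entries, 26248 with numeric identifiers (0.0513 to 0.132% of counts) and 97 spike-ins without counts were left out. Gene identifiers match GENCODE M21 (GRCm38).

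Each comparison was fitted over all genes with edgeR 4.0.16 (filterByExpr with a minimum count of 10, TMM, robust quasi-likelihood test, prior count 2, R 4.3.3), with Benjamini-Hochberg adjustment and calls under 0.05. Errors are SE for log2 fold changes and SD between libraries for levels. Promoter windows are RefSeq's, from GRCm38.p6. The steps were tested on simulated data. No library was a copy of another.

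The members and lists were chosen with earlier results of these data known. Every member is described or counted, and values in every library, or a group's range, are given for Trp53, Mdm2, Mdm4, Ppm1d and the called members with the largest changes and a mean of at least 1 CPM (up to 12 for knockout against control, up to 8 elsewhere), with up to 4 genes of smallest p per pathway list. Alternatives were RLE factors, total counts only, no filter, 1 fit for all groups, DESeq2 1.42.0, voom with quality weights (limma 3.58.1), a replicate block, removal of an exon length and GC trend (splines, 5 degrees of freedom), subsets of the controls and leaving out each library.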

Additional observations from a re-analysis of the deposited data

Results flagged for a closer look

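In 65 groups of 8 libraries, 7 held a library far from the others by a gap test, which chance alone does in about 1 in 20 groups. Apaf1 was lowest in naive 6, at 22.1 CPM, against 29.8 to 33 CPM in the other naive libraries, and Plk2 was highest there, at 2.71 CPM against 0.333 to 1.45 CPM. Mdm2 was highest in control 3, at 133 CPM against 112 to 121 CPM in the other controls. Pidd1 was lowest in control 1, at 46.9 CPM against 55.1 to 59.7 CPM. The other 3 concern genes near 0: Eda2r had 0.0806 CPM in control 2 and 0 in the other controls, and Gdf15 had 0.197 CPM in control 3, against 0 to 0.077 CPM in the other controls, and 0.137 CPM in naive 3, against 0 to 0.0413 CPM in the other naive libraries.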

How the results depend on the processing

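Whether replicate numbers pair the samples was examined by residual correlations over 20750 genes. Libraries of knockout and control with the same number had correlations of 0.0104 and 0.0506, with 1 of 2 highest with its own number. The residuals of the 2 knockout libraries are mirror images of each other, so these values cannot decide whether knockout and control are paired. For control and naive the correlations ran from -0.025 to 0.0321, with 1 of 8 highest with its own number. With the number as a replicate block, 0 genes and 0 members were called in either direction in knockout against control, with or without removal of the length and GC trend. In knockout against naive the block gave 1177 genes higher and 2145 lower of 19776, with 9 members higher and 4 lower of 31. Against controls 1 and 2 only, 5 genes were called higher and 0 lower, with 1 member higher and 0 lower. The count of members called lower in knockout against control was 0 with no low-count filter, voom, RLE factors, the trend removed and total counts only, and voom called 694 genes lower. Leaving out each library in turn, that comparison gave 304 to 1459 genes and 7 to 17 members higher, and 347 to 1405 genes and 0 to 1 members lower, the lowest values being those without knockout 2, except that the 0 also came without control 3, 4, 5, 7 or 8. The usage test called 194 of 41639 transcripts in knockout against control and 1003 of 34029 in control against naive, 3 and 2 of them from members. With a minimum count of 50 it called 108 and 654, with 0 from members in both, and without either knockout library 1 from members. Total counts only moved the median log2 fold change of all genes to -0.18 from -0.08 in control against naive and to -0.19 from -0.08 in knockout against naive, and the share of calls that were higher to 39.5% from 45.4% and to 38.6% from 47.3%.

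No called member changed sign. Of values that were not called, these changed sign in knockout against control: Trp53 was 0.01 with RLE factors and DESeq2, 0.05 with the trend removed, 0.04 with trend removal and block, and 0.01 against controls 1 and 2. Btg2 was 0.00 in 1 fit for all groups, -0.01 with voom and -0.06 against controls 3 to 8. With the block, with block and trend removal, and against controls 1 and 2, Pidd1 was 0.02, 0.13 and 0.03, Ppm1d was -0.10, -0.07 and -0.10, and Sesn1 was 0.13, 0.11 and 0.14. Leaving out each library in turn, values ran from -0.14 to 0.10 for Trp53, -0.04 to 0.03 for Btg2, -0.10 to 0.48 for Ephx1 and -0.01 to 0.14 for Ppm1d. In control against naive, Aen was 0.00 with RLE factors and DESeq2 and 0.04 with no filter. Total counts only gave Ccng1 -0.07, Mdm2 -0.03, Polk -0.09 and Trp53 0.00, and voom gave Plk2 0.20. Leaving out each library, Aen ran from -0.05 to 0.05, Plk2 from -0.23 to 0.14 and Polk from -0.02 to 0.04. In knockout against naive, Trp53 was -0.01 with total counts only and Mdm4 0.01 with the block, and leaving out each library gave -0.42 to 0.13 for Mdm4, -0.23 to 0.53 for Rrm2b, -0.04 to 0.23 for Trp53 and -0.81 to 0.13 for Trp53inp1. The causes were not tested. Eda2r and Gdf15 fell below the count filter of the reported fits, at 3 to 26 counts over the libraries of a group where any were found.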
